A study of Mus musculus with 6 samples.

Results

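Molecular chaperones help proteins fold, and the genes described here encode the heat shock proteins of the cytosol and mitochondria together with the folding machinery of the endoplasmic reticulum (ER). The 87 members are all genes of the deposited table whose symbols belong to the Hsp, Dnaj and Pdia series, plus 14 named regulators and ER proteins, with the proteoglycan gene Hspg2 and the gene Hspbap1 left out. They were taken by symbol from 16138 genes, and all 87 are of type mRNA. The study compared 2 groups of mouse bone marrow-derived macrophages, which were grown from marrow cells for 7 days in RPMI-1640 medium with 50 ng/ml macrophage colony-stimulating factor (M-CSF). The knockout group, called cKO here, came from Morrbid fl/fl mice that also carried Lyz2-Cre (3 samples), and the control group, named WT in the file, came from Morrbid fl/fl mice without Cre (3 samples). Morrbid is a long non-coding RNA of myeloid cells, and Lyz2-Cre acts in cells that express the lysozyme gene Lyz2. Both groups therefore carry the floxed allele, and effects of Cre cannot be told apart from those of the deletion. Age, sex, strain background and the number of animals are not given in the sources used here, and the p-values thus reflect variation among these 6 samples, which could be technical.

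The authors' deposited table gives every gene a single log2 fold change of cKO over control with its p-value and q-value, and a value above 0 means more transcript in cKO cells. Values per library and sequencing depth were not analysed here. As a stand-in for the spread, a standard error was computed from each ratio and its p-value as a Wald test would need it, and 95% intervals are built from it. The target of the deletion, Morrbid, was not analysed here. Lyz2, whose locus drives Cre, fell by 0.85 on the log2 scale (q = 4.6e-06) by the authors' deposited table, and Bcl2l11, the neighbour of Morrbid, stood at -0.24 (q = 0.292). All 15 listed macrophage markers were in the table, with a median of 0.03, 1 that rose and 1 that fell (Lyz2), but ratios do not give their levels. Of 20 fibroblast and stromal markers, 4 fell, 20 had ratios below 0, and the median was -1.69. In bulk RNA, fewer cells of a type and less RNA per cell cannot be told apart. In the other marker lists, 0 of 11 plasma and B cell markers, 0 of 14 neutrophil markers, 0 of 10 dendritic cell markers and 0 of 9 erythroid, megakaryocyte and mast cell markers passed a q of 0.05, with medians of -0.02, -0.35, -0.16 and -0.44. Ratios below 0 were found for 8, 13, 7 and 6 of them in that order, where 52.3% of all genes had ratios below 0.

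As background, HSP70 proteins bind exposed stretches of unfolded proteins in cycles of ATP hydrolysis that J proteins (the Dnaj series) start and nucleotide exchange factors end. HSP90 acts later on a set of client proteins, and small heat shock proteins hold unfolded proteins until HSP70 takes them over. In the cytosol, the transcription factor HSF1 raises these genes upon heat or other damage. In the ER, the sensors IRE1, PERK and ATF6 start the unfolded protein response, which raises ER chaperones, protein disulfide isomerases and factors that export damaged proteins. Macrophages secrete much protein, and IRE1 and its product XBP1 are known to act in their response to microbial ligands.

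Of the promoters of members, 7 held the ER stress response element, to which NF-Y and ATF6 are known to bind. It was searched as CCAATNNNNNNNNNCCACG on both strands in RefSeq promoters (assembly GRCm38.p6), from 250 bases before to 50 bases after each start. All 7 are among the 27 ER members described below. The stretches are shown here, read 5′ to 3′ along the strand of the gene, with the element in capitals:
Calr, chr8:84847045-84847123, minus strand: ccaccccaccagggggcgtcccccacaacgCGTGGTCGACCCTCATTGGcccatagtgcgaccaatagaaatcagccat
Canx, chr11:50325770-50325848, minus strand: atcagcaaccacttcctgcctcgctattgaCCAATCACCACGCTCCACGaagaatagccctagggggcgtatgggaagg
Creld2, chr15:88819490-88819568, plus strand: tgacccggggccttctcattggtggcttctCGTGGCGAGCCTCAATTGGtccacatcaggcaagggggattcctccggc
Dnajc3, chr14:118937797-118937875, plus strand: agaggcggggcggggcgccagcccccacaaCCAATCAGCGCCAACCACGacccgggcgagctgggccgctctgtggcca
Hsp90b1, chr10:86705503-86705686, minus strand: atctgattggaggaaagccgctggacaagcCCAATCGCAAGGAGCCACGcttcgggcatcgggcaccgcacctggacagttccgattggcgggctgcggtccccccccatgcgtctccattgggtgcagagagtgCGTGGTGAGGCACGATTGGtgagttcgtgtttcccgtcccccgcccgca
Hspa5, chr2:34771995-34772073, plus strand: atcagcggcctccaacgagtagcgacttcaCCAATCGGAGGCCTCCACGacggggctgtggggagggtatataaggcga
Pdia6, chr12:17266461-17266539, plus strand: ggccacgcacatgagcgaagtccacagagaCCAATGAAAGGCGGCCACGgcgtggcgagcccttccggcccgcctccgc

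The element was rare in the table as a whole. It was found for 7 of the 70 members with a promoter sequence (10%) and for 19 of all 12658 genes with one (0.150%). In Canx, Dnajc3, Hspa5 and Pdia6 it reads as written, in Calr and Creld2 as its reverse complement, and Hsp90b1 holds 1 copy in each orientation, at -212 and -107 from the start. A heat shock element, searched as GAANNTTCNNGAA or TTCNNGAANNTTC on both strands, was found for 4 members (5.71% of those with a promoter) and for 71 of all genes (0.561%). These members were Hspd1, Hspe1, Dnajb6 and Hsph1, where the 2 matches of Hspd1 and those of Hspe1 are the same bases, since a start of Hspd1 and that of Hspe1 lie next to each other on opposite strands. The shared element overlaps itself, so that 2 matches form the run in capitals:
Hspe1, chr1:55088053-55088082, plus strand: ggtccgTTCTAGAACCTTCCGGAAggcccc

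A match is a description of letters, and factor binding was not measured.

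None of the 87 members had a q under 0.05 by the authors' deposited table: 0 were called higher in cKO cells and 0 lower. Over all genes, 1.72% passed, 0.849% higher and 0.874% lower. DESeq2 is among the tools named in the submitters' processing notes, and no other test could be run on 1 ratio per gene. At an unadjusted p under 0.05, 12 members (13.8%) were counted, 3 with ratios above 0 and 9 below, against a background of 8.84% of all genes, 4.32% above and 4.52% below. The median log2 fold change of the members was -0.02, against -0.01 over all genes, and 46 members (52.9%) had ratios below 0, against 52.3% of all genes.

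The table bounds many of these genes closely. The computed standard error had a median of 0.135 log2 units over the members and 0.185 over all genes. At the largest p-value that still passed (0.00086), a member of median precision needed a log2 change of 0.45. That need was at most 0.5 for 51 members, and over 1 for 17. The 95% interval lay wholly within 0.5 log2 units of 0 for 50 members (57.5%; 46.6% of all genes), and within 1 for 72 members (82.8%; 62.6% of all genes). For 8 members the standard error was above 1, and their ratios say little. For 13 members, Hsp90aa1 (58.5%) among them, over 10% of the stretches of 50 bases in the transcript also occur in transcripts of other genes. What this does to their ratios and intervals was not tested.

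**Figure D1:**
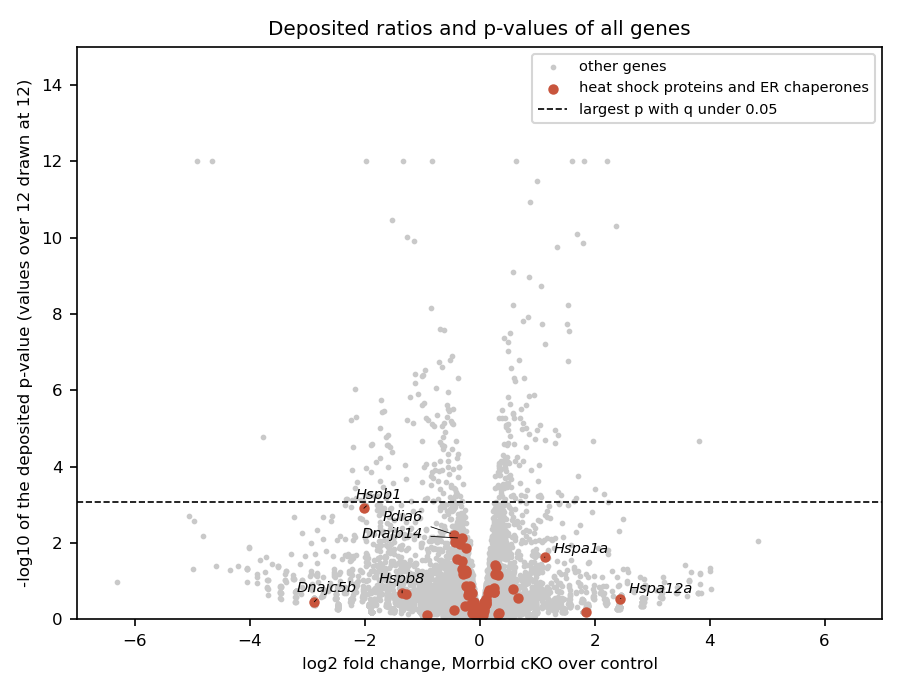
Log2 fold change of cKO over control (x axis) against the -log10 of the deposited p-value (y axis, values over 12 drawn at 12) for members (red) and all other genes (grey), with a dashed line at the largest p that still had a q under 0.05. No red point lies above the line, and Hspb1 lies nearest to it.

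The chaperones that receive proteins in the ER had ratios below 0 throughout, by small amounts. This role holds 7 genes: the ER members of the HSP70 and HSP90 families, the lectin chaperones and Sdf2l1. All 7 were below 0, with a median of -0.16 and a range from -0.40 to -0.07, and none passed. Hsp90b1, the ER form of HSP90 known as GRP94, stood at -0.34 in the authors' deposited table (p = 0.0108, q = 0.252), with an interval from -0.61 to -0.08. Sdf2l1, which partners the ER J protein Dnajb11, stood at -0.40 in the authors' deposited table (p = 0.0270, q = 0.418), with an interval from -0.76 to -0.05. For these 2 genes of the 7 the interval did not reach 0.

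Hspa5 encodes BiP, the HSP70 of the ER lumen and the usual readout of ER stress. It stood at -0.16 in the authors' deposited table (q = 0.917), and its interval, from -0.40 to 0.08, holds values below and slightly above 0. The lectin chaperones Calr and Canx, which hold newly made glycoproteins, stood at -0.21 (q = 0.966) and -0.13 (q = 0.933) by the authors' deposited table. Hspa13, an HSP70 relative of microsomes, stood at -0.10 (q = 0.993), and Hyou1, the large ER exchange factor GRP170, at -0.07 (q = 0.993), again by the authors' deposited table. The interval for Hyou1 ran from -0.27 to 0.14 and overlaps that of Hsp90b1.

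Disulfide isomerases, which form and reshuffle disulfide bonds, followed the same sign. All 4 measured Pdia genes were below 0, with a median of -0.25. Pdia6, an isomerase that works with BiP, had the smallest p of all ER members, at -0.44 in the authors' deposited table (p = 0.00612, q = 0.183; interval -0.75 to -0.13). That is 0.737 times the control level. Pdia4 stood at -0.25 (p = 0.0528, q = 0.577) and Pdia3, the partner of calnexin and calreticulin, at -0.24 (p = 0.0534, q = 0.579) according to the authors' deposited table, with intervals that just reached 0. Pdia5 had a like ratio, -0.25 (q = 0.993), but an interval from -0.92 to 0.42.

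J proteins of the ER did not share 1 direction. Of 9, 4 had ratios below 0 and 5 above, with a median of 0.01 and a mean weighted by precision of -0.06. Dnajb14, anchored in the ER membrane, stood at -0.31 (p = 0.00755, q = 0.208; interval -0.54 to -0.08), and Dnajc3, the inhibitor of PERK known as p58IPK, at -0.24 (p = 0.0134, q = 0.288; interval -0.43 to -0.05), by the authors' deposited table. Dnajb9, which restrains IRE1 through BiP, stood at -0.17 (q = 0.833) in that table. The other 6 lay between -0.00297 (Dnajc10, a disulfide reductase) and 0.14 (Dnajc1) by the authors' deposited table, and the lumenal cofactor Dnajb11 at 0.01 had an interval from -0.18 to 0.21.

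Sensors of the unfolded protein response and their targets lay on both sides of 0. Ern1, which encodes IRE1 alpha, stood at 0.24 (q = 0.918), Eif2ak3, which encodes PERK, at -0.18 (q = 0.920) and Atf6 at 0.09 (q = 0.993) according to the authors' deposited table. Xbp1, the factor whose transcript IRE1 splices, stood at -0.23 in the authors' deposited table (p = 0.0610, q = 0.611), and splicing itself cannot be read from 1 ratio per gene. The secreted ER stress proteins Creld2 and Manf stood at -0.23 (q = 0.828) and -0.18 (q = 0.843) by the authors' deposited table. Herpud1, an ER membrane protein of the degradation pathway, was the target with a ratio above 0, at 0.27 (p = 0.0383, q = 0.498; interval 0.01 to 0.52) by the authors' deposited table. Together the 27 members assigned to ER roles here, called ER members, had 19 ratios below 0 (70.4%, against 52.3% of all genes) and a median of -0.17. Beside these lower ratios, the 20 fibroblast and stromal markers were all below 0 with a median of -1.69, and their part in the ER ratios was not tested. The 60 members not assigned to an ER role had 27 below 0 (45%) and a median of 0.03. This is a split by list, and some of the 60 may also act in the ER. Whether these groups differ beyond the spread between samples was not tested, since no values per library were analysed here.

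**Figure D2:**
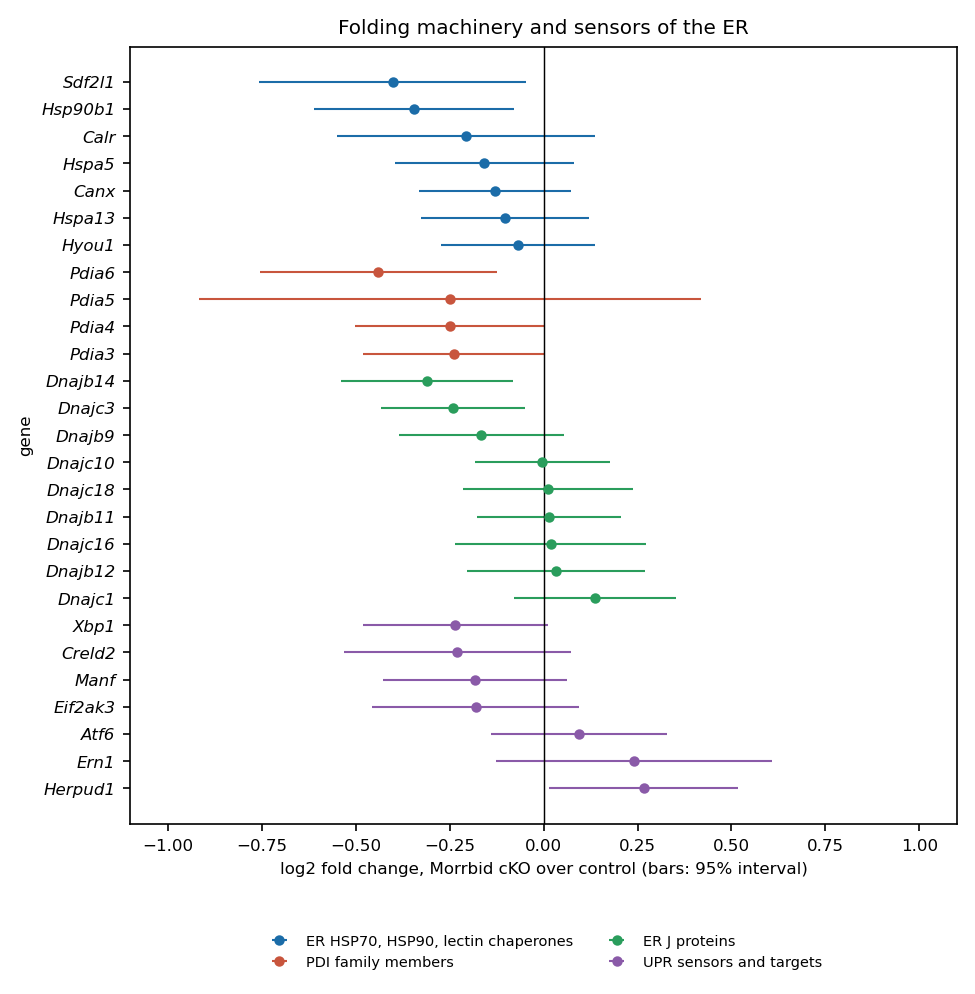
Log2 fold change of cKO over control (x axis) for the 27 ER members (y axis), coloured by role, with bars for the 95% interval computed from the ratio and its p-value. The blue and red genes all lie left of 0, and the intervals of Pdia6, Hsp90b1 and Sdf2l1 stop short of it. Herpud1 lies right of 0 at 0.27.

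Sorted by the promoter sequences printed above, the 7 members with the ER stress response element were all below 0, from -0.44 (Pdia6) to -0.13 (Canx), with a median of -0.23, where 52.3% of all genes had ratios below 0. All 7 belong to the 27 ER members described above, of which 19 were below 0 (70.4%). Their ratios are therefore the same values sorted anew, and a difference from the other ER members was not tested. Of these 7, 3 had an unadjusted p under 0.05 (8.84% of all genes) and 0 had a q under 0.05 (1.72% of all genes). The other 12 genes of the table with the element had 8 ratios below 0 and 4 above, a median of -0.08 and a wider range, from -2.46 to 2.13. Among them, Syvn1, the ubiquitin ligase of ER-associated degradation, stood at -0.02 (q = 0.997) and Ero1b, an ER oxidase, at -0.19 (q = 0.673), while Adcy3, an adenylate cyclase, at 0.61 (q = 0.0425) and Xlr3b at 2.01 (q = 0.0276) passed, according to the authors' deposited table. These 4 were named after their values were seen. So was Alg12 (0.10, q = 0.993 by the authors' deposited table), whose match is the same bases as that of Creld2, read on the opposite strand. That element is thus counted both among the 7 members and among the other 12 genes. The 4 members with a heat shock element lay between -0.09 and 0.11, and none had a p under 0.05 (8.84% of all genes). Only exact matches were counted, in the 70 of 87 members with a promoter sequence. Hspa1a, Hspa1b, Hspb1, Dnajb1 and Bag3 are not among the 4. Whether each lacked a match or a promoter sequence is not separated here, so the 4 do not stand for all heat shock genes.

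**Figure D3:**
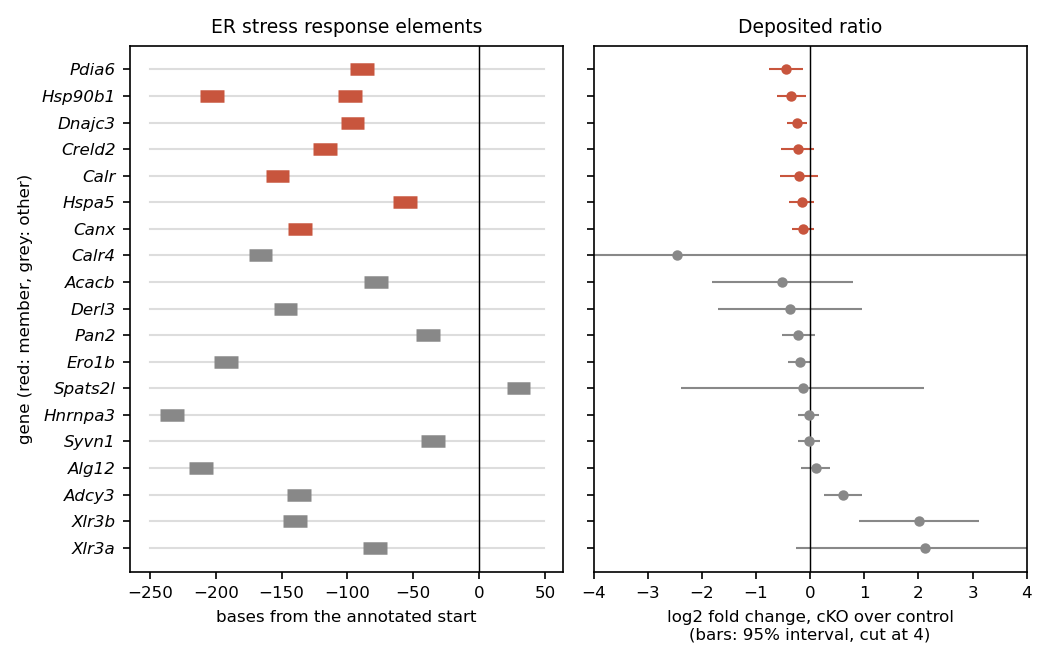
Left, position of the ER stress response element (blocks) in bases from the annotated start for the 19 genes that hold it, members in red and other genes in grey. Right, the log2 fold change of cKO over control with its 95% interval, cut at 4; all 7 red points lie below 0, and the grey points run from -2.46 to 2.13.

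Outside the ER, Hspa1a and its neighbours Hspa1b and Hspa1l had ratios above 0 with wide intervals, which include 0 for Hspa1b and Hspa1l. Hspa1a, which encodes inducible HSP70 and is the classic target of HSF1, stood at 1.13 in the authors' deposited table (p = 0.0239, q = 0.390), 2.19 times the control level, with an interval from 0.15 to 2.11. Hspa1b, which encodes an almost identical protein, stood at 0.57 (q = 0.879; interval -0.23 to 1.38) and Hspa1l, known mainly from testis, at 0.67 (q = 0.993; interval -0.55 to 1.89) by the authors' deposited table. The 3 genes lie side by side in the RefSeq annotation. Of the 50-base stretches of the Hspa1a transcript in GENCODE, 58.8% also occur in Hspa1b, so reads may have been divided between them and the separate values are uncertain.

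Further regulators and targets of the heat shock response named here, apart from the small heat shock proteins, had ratios from -0.18 to 0.16. Hsf1 itself stood at -0.02 (q = 0.998; interval -0.26 to 0.22) and Hsf2 at 0.11 (q = 0.993) by the authors' deposited table. The HSF1 targets Dnajb1, the main partner of cytosolic HSP70, and Hsph1, the exchange factor HSP110, stood at -0.10 (q = 0.993) and 0.03 (q = 0.993) according to the authors' deposited table. Bag3, a target that links HSP70 to autophagy, stood at 0.16 (q = 0.890) in the same table. Hsp90aa1, the inducible HSP90, stood at -0.18 (q = 0.920) and Hsp90ab1, the constitutive form, at -0.04 (q = 0.993) by the authors' deposited table. For Hsf1, Hsph1, Dnajb1 and Bag3 the interval lay within 0.5 log2 units of 0. Differences between these genes and Hspa1a were not tested.

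Of the 7 remaining cytosolic members, 3 (Hspa8, Hspa4 and Hspa14) had intervals within 0.5 log2 units of 0. Hspa8, the constitutive HSC70, stood at 0.04 (q = 0.993; interval -0.19 to 0.28) by the authors' deposited table, and 73.2% of its 50-base stretches occur in transcripts of other genes, largely pseudogenes. Hspa4, an exchange factor for HSP70, stood at 0.07 (q = 0.993; interval -0.10 to 0.23), while its relative Hspa4l stood at -0.30 (p = 0.0301, q = 0.443; interval -0.57 to -0.03), according to the authors' deposited table. Hspa2, best known from spermatocytes, stood at 0.31 in the authors' deposited table (p = 0.0704, q = 0.649; interval -0.03 to 0.65). Hspa14 stood at 0.04, and Hspa12b at 0.33 with an interval from -1.21 to 1.87. The atypical HSP70 relative Hspa12a had the highest ratio of any member, 2.45 in the authors' deposited table (q = 0.993), with a standard error of 2.31, so the value carries no direction. Of the 13 members of this role, 10 were above 0 and the median was 0.07, whereas the mean weighted by precision was 0.01.

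Small heat shock proteins included the member closest to the threshold. Hspb1, which encodes HSP25 and binds actin filaments and unfolded proteins, stood at -2.01 in the authors' deposited table (p = 0.00124, q = 0.0626), 0.248 times the control level, with an interval from -3.24 to -0.79. It ranked 320 of 16138 genes by p, where 278 passed. When only genes with a standard error of at most 1 were tested together, its adjusted p by the Benjamini-Hochberg method was 0.0482. Beside this value, all 20 fibroblast and stromal markers had ratios below 0, with a median of -1.69, among them the collagen chaperone Serpinh1, which fell to 0.25 times the control level (q = 0.0379), and smooth muscle actin Acta2, which fell by 2.06 on the log2 scale (q = 0.0458), by the authors' deposited table. The part of stromal cells in the ratio of Hspb1 was not tested. Of the Hspb1 transcript's 50-base stretches, 51.6% also occur in its pseudogene Hsp25-ps1.

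Hspb8, the partner of Bag3 in autophagy of damaged proteins, stood at -1.35 (q = 0.930) by the authors' deposited table, but its interval, from -3.44 to 0.74, spans 0. Hspb6 (-0.16, q = 0.993) and Hspb11, a protein of cilia transport (-0.13, q = 0.993), were measured more closely according to the authors' deposited table, whereas Hspb7 (0.32) and Hspb9 (-0.45) had standard errors of 0.986 and 0.833. Of the 6 members, 5 were below 0, with a median of -0.30. Without Hspb8, whose standard error was above 1, the median was -0.16, and a median over so few genes depends on which of them are counted.

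**Figure D4:**
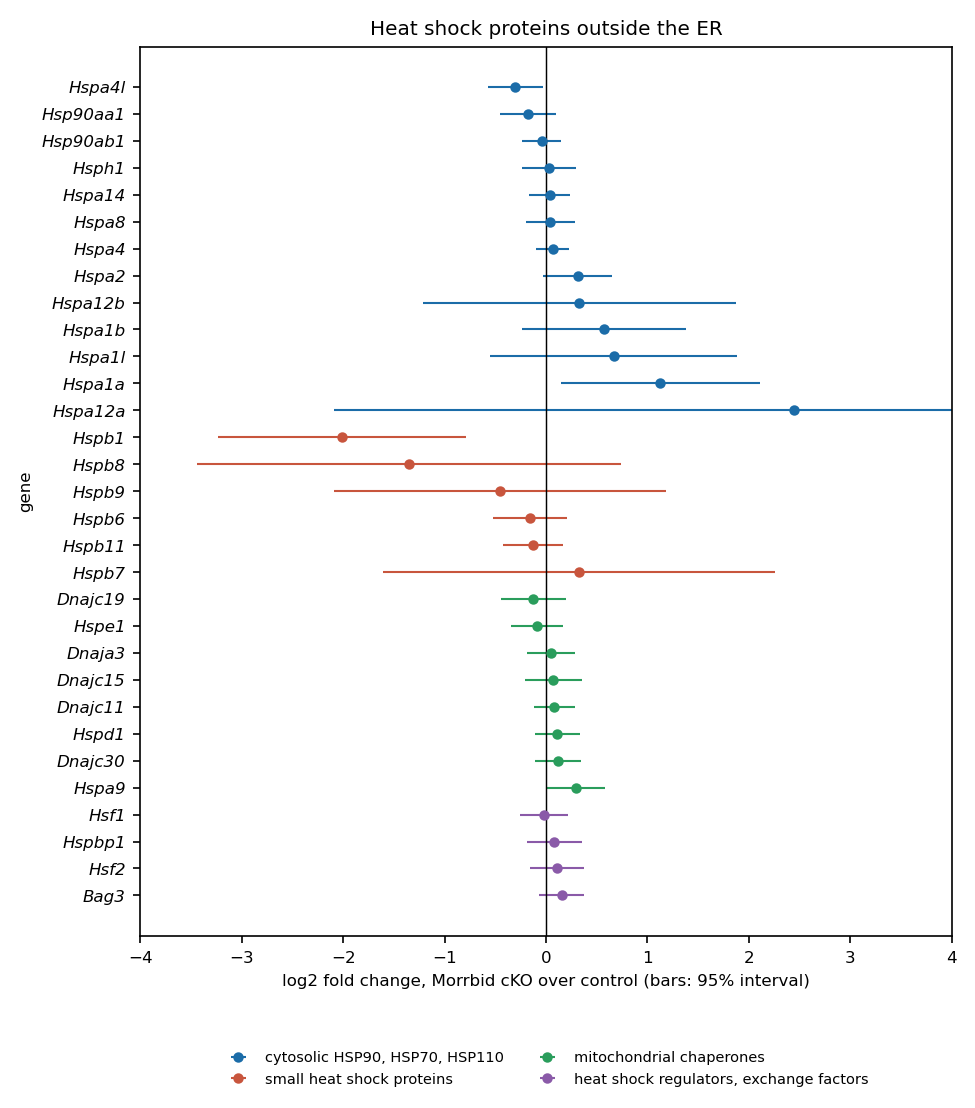
Log2 fold change of cKO over control (x axis, bars cut at 4) for the 31 heat shock proteins and regulators outside the ER (y axis), coloured by role, with 95% intervals. Hspb1 at -2.01 and Hspa1a at 1.13 lie farthest from 0 among genes whose interval does not reach it, and the mitochondrial and regulatory genes lie close to 0.

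Mitochondrial chaperones lay close to 0 and were measured closely, with a median of 0.08 over 8 genes and every interval within 1 log2 unit of 0. Hspa9, the mitochondrial HSP70 mortalin that pulls imported proteins into the matrix, stood at 0.29 (p = 0.0444, q = 0.533; interval 0.01 to 0.58) by the authors' deposited table. Hspd1 and Hspe1 encode the chaperonin HSP60 and its lid HSP10 and share the promoter element printed above. They stood at 0.11 (q = 0.993; interval -0.11 to 0.34) and -0.09 (q = 0.993; interval -0.35 to 0.17) by the authors' deposited table, on opposite sides of 0 with intervals that overlap. Of their 50-base stretches, 44.8% (Hspd1) and 36.1% (Hspe1) also occur in transcripts of other genes, so these values are less certain than their intervals. The mitochondrial J proteins (Dnaja3, Dnajc11, Dnajc15, Dnajc19 and Dnajc30) lay between -0.12 and 0.12.

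J proteins of the cytosol and other compartments form the largest group, with 29 members, of which 16 were below 0 and 13 above, with a median of -0.02, or 0.01 over the 23 whose standard error was at most 1. Among the precise ones, Dnajc12, a cofactor for aromatic amino acid hydroxylases, stood at -0.43 (p = 0.00971, q = 0.238; interval -0.75 to -0.10), and Dnajb2 at -0.31 (p = 0.0489, q = 0.559), according to the authors' deposited table. Dnajc9, a histone cochaperone, stood at -0.29 in the authors' deposited table (p = 0.0674, q = 0.638). Dnajc2, which binds translating ribosomes, stood at 0.26 (p = 0.0644, q = 0.625; interval -0.02 to 0.54) and Dnajc21, of ribosome assembly, at 0.25 (q = 0.913; interval -0.12 to 0.62) by the authors' deposited table, and both intervals include 0. The splicing cofactor Dnajc17 stood at 0.24 (q = 0.852; interval -0.09 to 0.57) in that table. The general HSP70 partners Dnaja1 (-0.04, q = 0.993) and Dnaja2 (0.02, q = 0.994) lay near 0, with intervals from -0.28 to 0.20 and from -0.15 to 0.18 by the authors' deposited table. Dnajc8, of the spliceosome, had the smallest standard error of all members, 0.0768, at a log2 fold change of 0.07.

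For 6 of these 29 genes the standard error exceeded 1, and their ratios ran from -2.88 (Dnajc5b) to 1.86 (Dnajc22) with q-values of 0.948 or more according to the authors' deposited table. Dnajb3, Dnajc5b, Dnajc6 and Dnajc22 shared their ratio and p-value with another gene of the table. Such values carry no information on direction.

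Other genes of protein folding, from 5 lists, were set beside the members. The collagen chaperone Serpinh1 is in neither the members nor these lists, since it was counted with the stromal markers. It fell to 0.25 times the control level (q = 0.0379) by the authors' deposited table. Of 136 measured genes in these lists, 0 rose and 1 fell, against 0.849% and 0.874% of all genes. The gene that fell was Fkbp5, a cochaperone of HSP90 and a known target of glucocorticoid receptor, at -0.65 (q = 0.0113) by the authors' deposited table. Ahsa1, the activator of the HSP90 ATPase, stood at 0.43 in the authors' deposited table (p = 0.00434, q = 0.149) and did not pass. Their list of 32 genes had a median of -0.02, with 20 ratios below 0; most encode cytosolic cochaperones, but it also holds the mitochondrial Trap1 and Clpb, the transcription factors Hsf4 and Hsf5 and the small heat shock protein gene Cryab. The 18 genes of the chaperonin TRiC and of prefoldin had a median of -0.03 and 12 below 0, and the smallest p-values were those of Pdcl3 (-0.15, q = 0.842) and Vbp1 (-0.16, q = 0.860) by the authors' deposited table.

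On the ER side, 25 of the 30 other folding enzymes had ratios below 0 (83.3%, against 52.3% of all genes) and a median of -0.14. At an unadjusted p under 0.05, 5 (16.7%) were counted, all below 0, against 8.84% of all genes, 4.52% with ratios below 0. Those with the smallest p were the prolyl isomerase Fkbp9 (-0.67, q = 0.128) and the thioredoxin-like Txndc5 (-0.28, q = 0.231) according to the authors' deposited table, and none passed. These 30 do not hold Serpinh1, which passed and was counted with the stromal markers. Some of the 30 enzymes fold collagen, and the stromal markers had a median of -1.69. The part of stromal cells in the ratios of the 30 was not tested. Genes of ER-associated degradation were centred on 0, with 15 of 26 below 0, a median of -0.01 and none that passed. Edem1 (-0.23, q = 0.379) and Edem3 (-0.14, q = 0.906), which recognise misfolded glycoproteins, had the smallest p-values there by the authors' deposited table. Genes of the integrated stress response and of the wider unfolded protein response, among them kinases and transcription factors, formed a list of 30. Of these, 19 had ratios above 0 and 11 below (36.7%, against 52.3% of all genes). The median was 0.11, and none passed. Ddit4 stood at -0.73 (q = 0.514) and Nupr1 at 0.39 (q = 0.581) by the authors' deposited table.

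**Figure D5:**
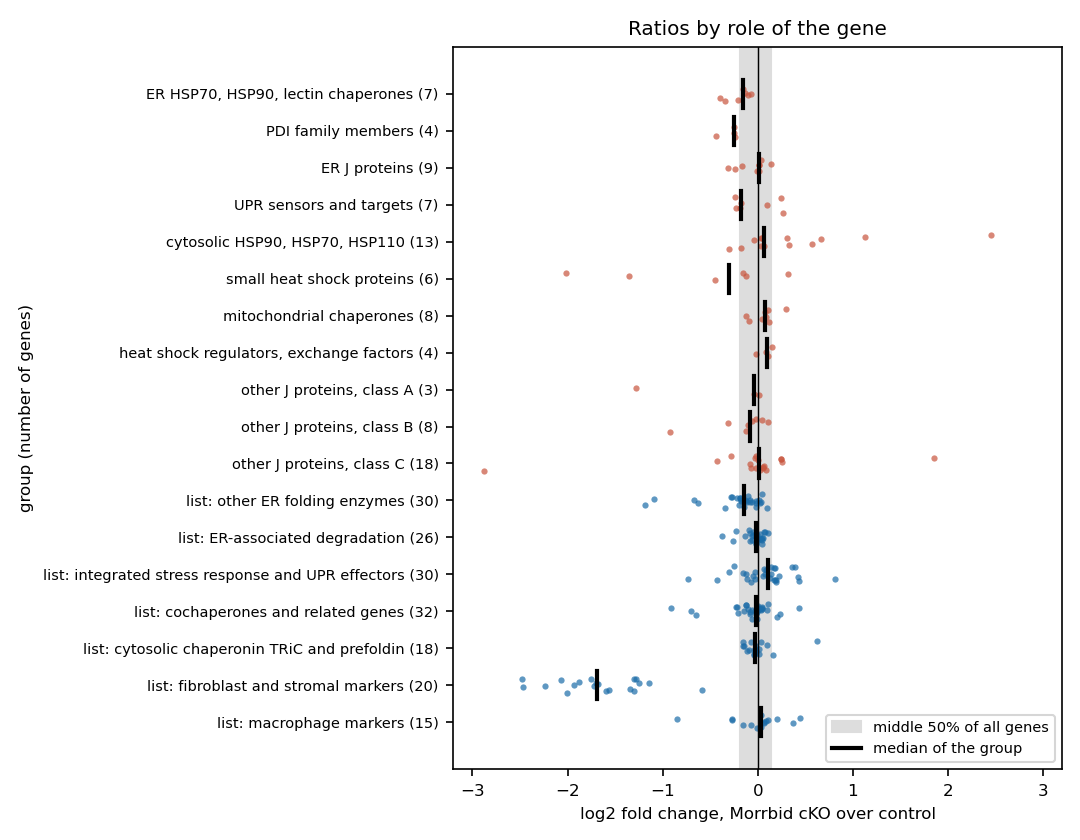
Log2 fold change of cKO over control (x axis) of each gene by role (members, red) or list (other genes, blue), with black bars for medians and a grey band for the middle 50% of all genes. The ER chaperones and disulfide isomerases lie left of 0 with medians of -0.16 and -0.25, the stromal markers far to the left at -1.69, and the mitochondrial chaperones slightly right at 0.08.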

How the data were processed

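RNA of 6 macrophage samples, 3 cKO and 3 control, was sequenced, and groups were taken from the genotype labels. The authors deposited 1 log2 fold change per gene for cKO over WT, with its p-value and q-value, per the file headers. The submitters' processing notes name build mm9 and the tools DESeq2 1.4.5, RSEM 1.3.1 and Bowtie2, without their roles; for scaling and for filters on low counts nothing is given in the sources used here. The deposited q-values match, within a relative gap of 0.00591, a Benjamini-Hochberg adjustment of all 16138 p-values. If scaling or filtering had differed, all ratios would shift together or the q-values would change.

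From these values a standard error (the ratio over the normal quantile of its p-value) and 95% intervals were computed, assuming a Wald test. The step was run on simulated ratios whose p-values came from a Wald test, which checks the arithmetic only. Whether the deposited p-values come from such a test was not tested. Genes were called at a q under 0.05. Members, roles and lists were chosen with earlier results of these data known, so counts and medians are descriptions without list tests. Planned model fits needed values per library and were not run. Named genes were all called members, the 8 smallest p-values and 3 largest ratios in each direction, a set of leading members, the called or 2 leading genes of each further list, and Lyz2 and Bcl2l11; other members were named after their values were seen. Promoters were matched by Gene ID (70 of 87 members) and come from RefSeq, assembly GRCm38.p6, which differs from mm9; transcripts come from GENCODE. The stretch length of 50 bases is a choice, since no source used here gives the read length. Alternatives were a q of 0.01, Holm adjustment, precise or mRNA genes alone, a minimum log2 change of 1, centring, and weighting. Steps were run in Python 3.11.15 (SciPy 1.17.1, NumPy 2.4.6, pandas 2.3.3) and plots drawn in matplotlib 3.10.9.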

Additional observations from a re-analysis of the deposited data

How the results depend on the processing

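No paired analysis was possible because only 1 ratio for each gene was at hand, without values of single libraries; fits that leave out a replicate, other scalings and other count tests were not run for the same reason. No member was called at a q under 0.01, with Holm adjustment, among mRNA genes alone or with a minimum log2 fold change of 1. When only genes with a standard error of at most 1 were tested together, 1 member was called, with 1 lower and 0 higher; this was Hspb1, at an adjusted p of 0.0482 by the Benjamini-Hochberg method, and fewer genes tested is how this alternative is built. The adjusted p-values of the other named members stayed at or above 0.142 under Holm adjustment and that limit. Of the 48 recomputed values, which were medians or means weighted by precision, 34 stayed within 1.5 times the median as reported, with the same sign. A weighted mean is another statistic, so its distance from the reported median is not a shift of the median itself. The median of all members (-0.02) was -0.00297 over those with a standard error of at most 1 and -0.00833 after subtracting the median of all genes. Over the precise members the median of small heat shock proteins was -0.156 (-0.30 as reported) and that of class A J proteins -0.0136 (-0.04). Means weighted by precision were 0.0145 for cytosolic HSP90, HSP70 and HSP110 (0.07), -0.0585 for ER J proteins (0.01, so the sign turned), -0.0418 for unfolded protein response sensors and targets (-0.18), -0.00824 for class A (-0.04) and -0.0274 for class B J proteins (-0.08). After subtracting the median of all genes, ER J proteins stood at 0.0223. For class C J proteins (0.02), the values were 0.0278 over precise genes and without genes of shared values, 0.0286 after that subtraction and 0.0273 as a weighted mean. The cause of these shifts was not tested, and most of these medians lie close to 0. Depth is unknown, and precision could be judged only from the computed standard errors.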
